A study of Mus musculus with 24 samples.

Results

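The histone genes of the Hist clusters were followed in cultured forelimb buds of CD1 mouse embryos (gestation day 13). They were selected as the protein-coding genes with a symbol starting Hist1h, Hist2h, Hist3h or Hist4h. Of 62 such genes, 54 had at least 10 counts in 4 or more of the 24 libraries, among 16811 of 25844 genes that passed the same minimum. The 54 comprise 5 linker histone genes (H1) and 12 H2A, 15 H2B, 10 H3 and 12 H4 genes of the nucleosome core. On chromosome 13 lie 46 of them, with 5 on chromosome 3, 2 on chromosome 11 and 1 on chromosome 6. The 8 genes under the minimum were Hist1h1t, Hist1h2ad, Hist1h2ao, Hist1h2ap, Hist1h2ba, Hist1h2bp, Hist1h2br and Hist2h2ab. Just inside the minimum stood Hist1h4m, with 10 counts or more in 5 libraries, and just outside it Hist1h2ad and Hist1h2bp, with 2 libraries each. There were 6 groups of 4 libraries: limb buds kept for 3 h or for 24 h with the solvent DMSO, with 1 µM BPDP, or with 10 µM BPDP. BPDP is tert-butylphenyl diphenyl phosphate, a flame retardant and plasticizer of the organophosphate ester group, and the title of the series places the question in hedgehog signalling. All groups share the strain, the embryonic stage and the culture, and no group of limb buds without culture is among them. The labels do not say whether replicates came from separate litters, embryos or cultures, or whether buds were pooled, so p-values measure the spread between these libraries.

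Histones are the proteins around which DNA is wound: H2A, H2B, H3 and H4 form the nucleosome core, and H1 binds the linker DNA between cores. The genes of the Hist clusters are mostly intronless and are transcribed chiefly while DNA is replicated, when new chromatin needs histones. Most of their mRNAs end in a short stem-loop bound by the protein SLBP instead of a poly(A) tail, although some of these genes also have a polyadenylation signal further downstream. The libraries were made from RNA captured on poly-T beads, per the labels, so a histone level here is that of the RNA retained by such beads and is not a measure of all histone mRNA.

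The stem-loops are shown because they mark this class of RNA and because the H4 genes differ in them from the other classes. In GENCODE vM21 transcripts (GRCm38), 52 of the 54 genes were found, all but Hist1h2bh and Hist1h2bm. A 16-base stem-loop consensus that starts with GG and ends with CC was searched on the sense strand after the coding part and was present in 35, between 24 and 57 bases after the last codon. Of 21901 coding genes in the annotation, 2.55% had a match. In 15 genes the annotated 3′ part was too short to hold the motif or no transcript was matched, and in 4 (Hist1h1a, Hist1h2bc, Hist1h2bq and Hist2h2be) a part of 40 bases or more had no match. The lines give the RNA-sense DNA letters, 5′ to 3′, with the 16-base stem-loop in capitals and its GRCm38 position.
Hist1h1c, chr13:23739512-23739527, plus strand: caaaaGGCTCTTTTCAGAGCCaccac
Hist3h2ba, chr11:58949349-58949364, plus strand: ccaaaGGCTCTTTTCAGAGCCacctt
Hist1h2ag, chr13:22042483-22042498, minus strand: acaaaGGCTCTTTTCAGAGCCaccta
Hist1h2bb, chr13:23747203-23747218, plus strand: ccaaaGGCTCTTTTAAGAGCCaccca
Hist1h2bk, chr13:22036300-22036315, plus strand: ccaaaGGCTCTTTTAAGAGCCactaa
Hist1h3c, chr13:23745047-23745062, minus strand: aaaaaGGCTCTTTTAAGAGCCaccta
Hist1h4i, chr13:22040966-22040981, minus strand: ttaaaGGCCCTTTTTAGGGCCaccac
Hist1h4n, chr13:21831798-21831813, minus strand: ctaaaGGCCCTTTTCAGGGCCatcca
The form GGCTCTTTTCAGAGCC occurred in 17 genes (3 H1, 5 H2A, 5 H2B and 4 H3), and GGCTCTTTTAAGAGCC in 5 (2 H2B and 3 H3). Of the H4 genes, 7 had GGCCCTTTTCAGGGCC and 2 had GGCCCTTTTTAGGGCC, forms found in no member of another class. The polyadenylation hexamer AATAAA was present after the coding part in 14 of the 52 genes, 11 of which also had the stem-loop.

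Library totals ranged from 14165947 to 20823058 counts, so that 1 count is worth 0.0493 to 0.0688 CPM (the count as a share of the library total, scaled with TMM over the 24 libraries), and 3 counts, used as the floor, 0.148 to 0.206 CPM. In the 1 µM 3 h replicate 3 and the DMSO 3 h replicate 4 libraries, Yam1 held 5.36% and 4.46% of all counts, against at most 0.217% in the others. All 10 listed markers of limb mesenchyme and the 9 measured of cartilage were present, summing to 1313 to 1951 CPM and 3520 to 13350 CPM per library. Markers of erythroid cells (1894 to 7100 CPM), muscle (1376 to 3947 CPM) and epidermis (669 to 2268 CPM) were present as well. So were those of endothelium (169 to 377 CPM) and macrophages (52.3 to 229 CPM), and each library is thus a mixture of cell types.

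Most histone genes were low. The mean over the 24 libraries was under 1 CPM for 14 genes, between 1 and 10 CPM for 37 and above that for 3. Per kilobase of gene length, Hist1h1c was the highest (26.5 CPM per kilobase), followed by Hist3h2ba (22.9), Hist1h2bc (15.3), Hist1h1e (13.0), Hist1h2al (12.6) and Hist1h4i (10.1). The median gene had 2.9 CPM per kilobase, and Hist1h2bq was the lowest with 0.145. Hist1h1c, which codes for a linker histone, held between 12.7% and 46.3% of the summed CPM of the 54 genes in single libraries (mean 24.5%). The 5 genes with the highest counts, Hist1h1c, Hist3h2ba, Hist1h2bc, Hist2h2be and Hist1h1e, held 32.0% to 70.3%. A few genes thus take a large but variable part of any sum over the class.

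The values of the highest-count gene of each class follow. Hist1h1c (chr13:23738808-23740367, mm10) had 37.6, 46.2, 34.5 and 33.3 CPM in DMSO replicates 1 to 4 at 3 h and 96.6, 26.5, 40.4 and 42.2 CPM at 24 h. With 10 µM it had 37.2, 33.3, 33.4 and 39.5 CPM at 3 h and 46.5, 35.9, 41.2 and 49.7 CPM at 24 h. Replicate 1 of the 24 h controls is the one high value, and all groups overlap. That library also had the highest sum of Gm26917 and Gm15564, listed here among RNAs without a poly(A) tail (1235 CPM, against 358 to 654 CPM in the other 23). The part of this in the Hist1h1c value was not tested.

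Hist3h2ba, an H2B gene at chr11:58948920-58949533, had 14.4, 14.9, 14.7 and 15.5 CPM in the 3 h controls and 27.7, 12.1, 10.7 and 15.9 CPM in the 24 h controls. Hist3h2a, its H2A neighbour at chr11:58954685-58956830, stayed between 4.15 and 6.65 CPM in the 24 libraries. Its interval overlaps Trim17 on the same strand, so some of its reads cannot be assigned with certainty. Hist1h3c, an H3 gene at chr13:23745013-23745501, had 2.95, 2.16, 10.9 and 15.2 CPM in the 3 h controls and 0.795, 1.18, 2.2 and 1.37 CPM at 24 h. The 3 h values of Hist1h3c split by replicate number, replicates 3 and 4 being the high ones. Hist1h4i, an H4 gene at chr13:22040636-22041362, had 3.7, 6.43, 11.8 and 15.4 CPM in the 3 h controls and 7.53, 3.59, 8.23 and 8.33 CPM at 24 h, with overlapping groups.

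**Figure D1:**
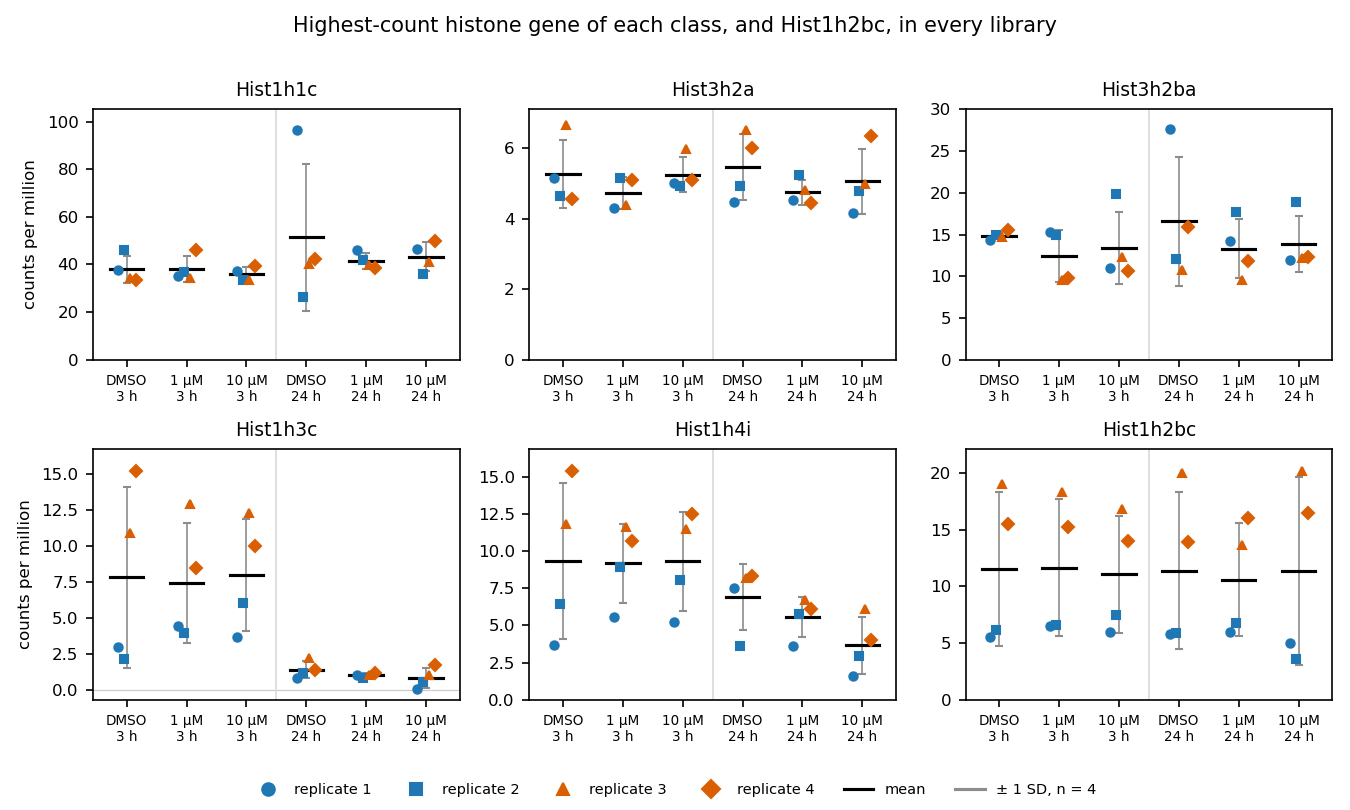
CPM (vertical axes, linear) of the highest-count histone gene of each class and of Hist1h2bc in the 6 groups. Points are libraries with a symbol for each replicate number, and lines are the mean ± 1 SD (n = 4); Hist1h2bc separates replicates 3 and 4 (13.6 to 20.2 CPM) from 1 and 2 (3.55 to 7.49 CPM) in each group, and Hist1h3c is lower at 24 h.

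Between 3 and 24 h of culture in DMSO, 7 of the 54 histone genes fell and none rose. In edgeR's quasi-likelihood test 3.84% of all genes tested were called lower in this comparison. The median log2 fold change of the 54 was -0.88, with 47 negative, against 0.00926 over all genes. The 7 were 3 H2A genes (Hist1h2ai, Hist1h2an and Hist1h2ae), 2 H2B genes (Hist1h2bk and Hist1h2bl) and 2 H3 genes (Hist1h3e and Hist1h3h). No H1 or H4 gene passed. In bulk tissue, fewer cells that make these RNAs and less of them per cell cannot be told apart. Nor can either be told from a smaller part of them being retained by the poly-T beads.

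Hist1h2bk, an H2B gene at chr13:22035870-22036345, had 2.66, 2.97, 6.23 and 6.49 CPM at 3 h and 1.1, 0.922, 0.591 and 0.356 CPM at 24 h in DMSO. Its groups did not overlap, and it fell by 2.62 on the log2 scale (SE 0.428, adjusted p = 0.00199). Hist1h3h, an H3 gene at chr13:21717659-21718069, had 4.57, 1.62, 4.91 and 4.23 CPM at 3 h against 1.47, 0.461, 0.86 and 1.07 CPM at 24 h. Its lowest 3 h library lies just above its highest 24 h library, and it fell by 1.99 (SE 0.424, adjusted p = 0.00964). Hist1h2an, an H2A gene at chr13:21786826-21787218, had 2.14, 1.62, 0.264 and 1.3 CPM at 3 h and 0.245, 0.205, 0.376 and 0.102 CPM at 24 h. Replicate 3 at 3 h is as low as the 24 h libraries, so the groups overlap (-2.49, SE 0.661). Hist1h2an had 10 counts or more in 10 libraries at 3 h and in 2 at 24 h. The count minimum thus favoured its fall, and no p-value is given for it. The other 4 fell by between 1.54 and 1.75, with adjusted p from 0.0157 (Hist1h3e) to 0.0495 (Hist1h2bl).

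Of the 7, 5 belong to the 17 histone genes that share most of their 100-base windows with another gene. Reads there can match several genes, and how the authors' counting treated such reads is not known here. The groups of 9 genes did not overlap, all lower at 24 h, where 8.20% of all genes tested had this pattern. In edgeR's test the 7 calls became 3 without DMSO 3 h replicate 3. They became 4 without DMSO 3 h replicate 4, DMSO 24 h replicate 2 or DMSO 24 h replicate 4. Hist1h2bk and Hist1h3h kept their calls when each of the 8 libraries was left out (highest adjusted p 0.0121 and 0.0426). Within replicates 1 and 2 no histone gene passed in edgeR's test, with 0.107% of all genes lower, and within replicates 3 and 4 there were 9, with 2.83% lower. DESeq2 called 13 over all 8 libraries, with 5.77% of all genes lower. In the authors' deposited table, 52 of the 54 carry an adjusted p, and 13 had one under 0.05, all lower at 24 h. The share of all genes in that table is not given here, so its count is not set against a background.

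Genes of DNA replication also fell. Of 30 listed, 24 fell between 3 and 24 h in DMSO (median log2 fold change -0.55), among them Mcm5 (-0.77), Mcm7 (-0.38) and Mcm6 (-0.43), subunits of the replicative helicase, and Rrm1 (-0.46), a subunit of ribonucleotide reductase. Over the same time 7 of 9 cartilage and 7 of 8 muscle genes rose (medians 1.02 and 0.89). The summed level of the replication genes went from 2173 to 2425 CPM at 3 h to 1401 to 1704 CPM at 24 h, that of the cartilage genes from 4086 to 5514 CPM to 7194 to 10932 CPM, and that of the muscle genes from 1484 to 1776 CPM to 2441 to 3600 CPM. Of 7 measured macrophage genes 5 rose, with sums of 78.2 to 99.7 CPM at 3 h and 149 to 229 CPM at 24 h. The part of these shifts in the histone levels was not tested.

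The 3 time courses were set side by side in 1 fit of all 24 libraries. From 3 to 24 h, 37 of 54 histone genes fell with 10 µM (median log2 fold change -2.16), where 14.0% of all genes tested fell. With 1 µM 7 fell (median -0.45), where 9.64% of all genes fell, and in DMSO 13 (median -0.88), where 7.56% did. In this fit Hist1h2ae, Hist1h2ag, Hist1h2ai, Hist1h2bk, Hist1h3c, Hist1h3e and Hist1h3h were called in all 3, 25 genes were called with 10 µM and not in the other courses, and 16 in none. In fits of their own 8 libraries the counts were 38 with 10 µM, with 13.7% of all genes lower, and 9 with 1 µM, with 9.14%. The 37 comprise 4 of 5 H1, 6 of 12 H2A, 10 of 15 H2B, 9 of 10 H3 and 8 of 12 H4 genes. Hist1h2bb, Hist1h2bf and Hist1h4f among the 37, and Hist1h2an and Hist1h2bf in DMSO, had 10 counts in fewer than 4 libraries at 24 h. They met the count minimum through 3 h libraries, which favoured their fall. Counts without them are not given.

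A call in one course and not in another does not show that the courses differ, and that difference was tested as an interaction. For 10 µM against DMSO the median log2 difference of the 2 time courses was -0.96. An unadjusted p under 0.05 was reached by 16 of the 54 and by 14.2% of all genes. Hist1h2bh passed after adjustment (-4.47, SE 1.15, adjusted p = 0.0289), 1 of 54, where 1.59% of all genes tested passed in that direction. With 10 µM at 24 h it had 3 counts in all, so the size of this value depends on the handling of low counts. The same difference for 1 µM had a median of 0.39. None of the 54 passed for 1 µM in edgeR's test, where 0.0357% of all genes did, and 1 had an unadjusted p under 0.05, as did 3.43% of all genes.

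Hist1h2bb, an H2B gene at chr13:23746790-23747241, had 0.73, 0.296, 2.98 and 0.804 CPM with 10 µM at 3 h, and at 24 h 1 count in all, in replicate 2. Hist1h2bh, an H2B gene at chr13:23542970-23543357, had 2.24, 1.33, 3.46 and 2.82 CPM at 3 h and at 24 h 3 counts in all, in replicate 1. Hist1h2bj, an H2B gene at chr13:22043214-22043676, had 0.99, 1.63, 3.66 and 1.68 CPM at 3 h and 0, 0.0563, 0 and 0.258 CPM at 24 h. For these genes the 24 h libraries with 10 µM were at or near 0, below each 3 h library. Over all groups Hist1h2bb had 10 counts or more in 8 libraries at 3 h and in 1 at 24 h, so the count minimum favoured its fall. The ratio of 24 h to 3 h counts, scaled for depth, was 0.0185 for Hist1h2bh (95% interval 0.00378 to 0.0551) and 0.0132 for Hist1h2bb (0.000331 to 0.0761), intervals that cover counting error only. Hist1h2bj fell by 4.61 on the log2 scale (SE 1.08, adjusted p = 0.0024). The groups of 33 histone genes did not overlap between 3 and 24 h with 10 µM, all lower at 24 h, where 15.1% of all genes had this pattern.

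With 1 µM, the genes that fell most from 3 to 24 h were Hist1h3c (-2.88, adjusted p = 0.00419), Hist1h2ag (-2.42, adjusted p = 0.00108) and Hist1h2ae (-2.35). Hist1h3c had 4.42, 3.97, 12.9 and 8.44 CPM at 3 h and 1, 0.826, 1.03 and 1.15 CPM at 24 h. Hist1h2ag had 3.66, 4.56, 7.57 and 5.29 CPM at 3 h and 0.823, 1.58, 0.465 and 1.09 CPM at 24 h. Hist1h2ae, an H2A gene, had 4.61, 4.88, 5.82 and 6.55 CPM at 3 h and 0.765, 1.03, 1.29 and 1.15 CPM at 24 h. None of the 3 genes overlapped between the times. Of the replication genes, 28 of 30 fell with 1 µM and 29 of 30 with 10 µM (medians -0.77 and -1.10), and 8 of 9 cartilage genes rose with either dose. Of the 6 endothelial genes 3 fell with 1 µM and 5 with 10 µM. The part of these shifts in the histone levels was not tested. In the fit of its own 8 libraries, the 1 µM course had 9 histone genes called, and 11 without 1 µM 24 h replicate 2. The groups of 9 histone genes did not overlap with 1 µM, all lower at 24 h, where 11.9% of all genes had this pattern.

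**Figure D2:**
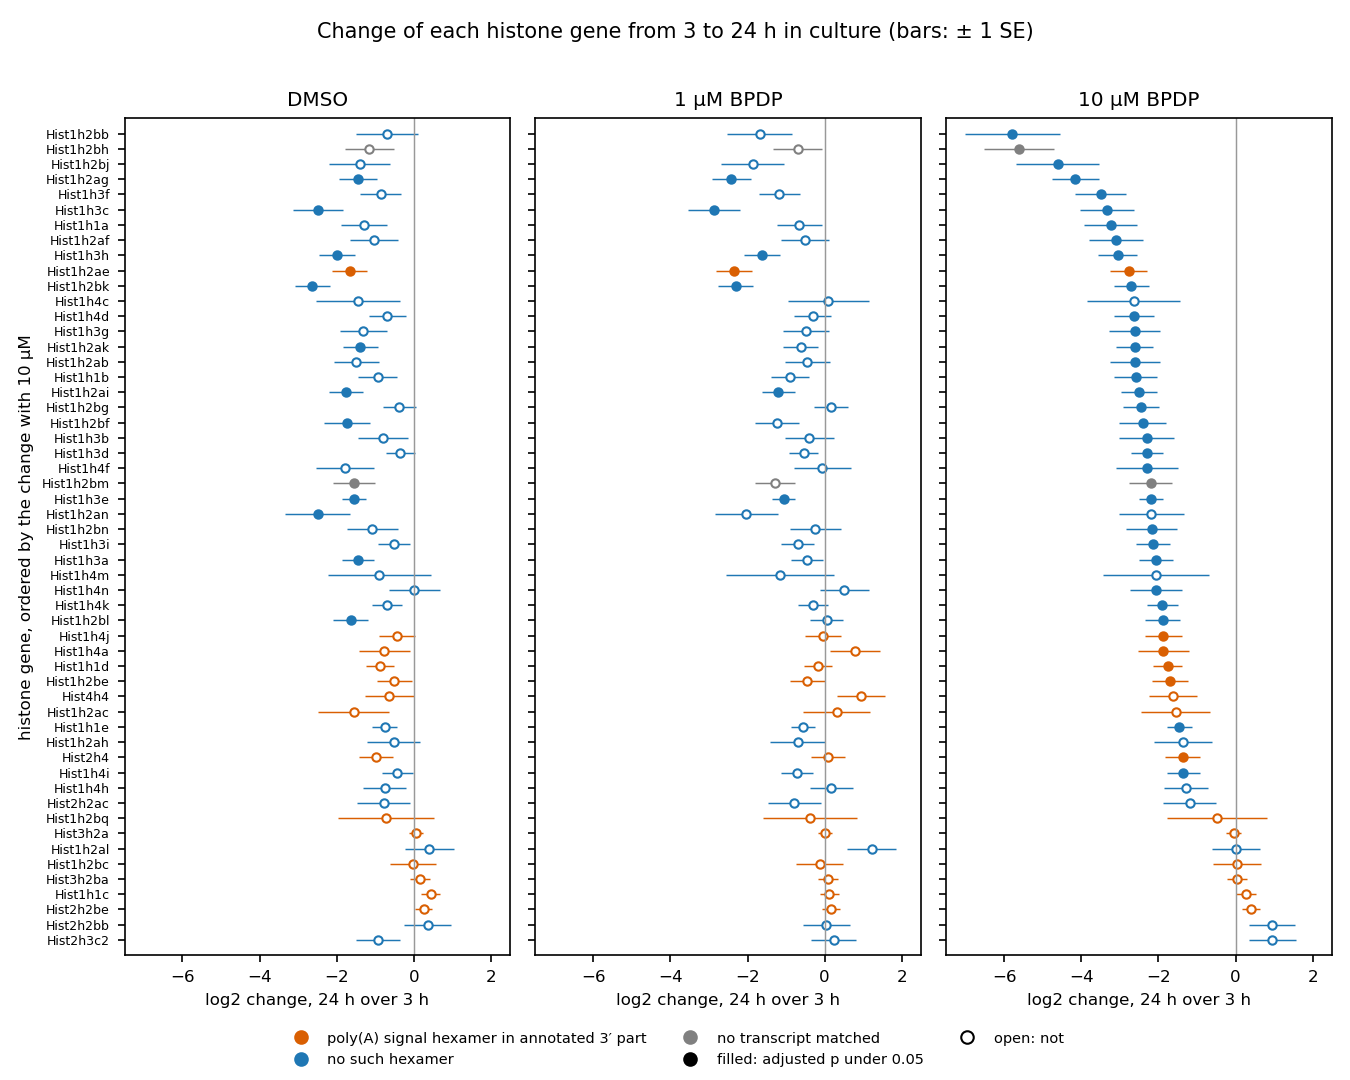
Log2 change from 3 to 24 h (horizontal axes, with ± 1 SE) of each of the 54 histone genes in DMSO, 1 µM and 10 µM, from 1 fit of all 24 libraries, ordered by the change with 10 µM. Filled points passed an adjusted p of 0.05 (13, 7 and 37 genes, all lower), and orange marks the 14 genes with AATAAA, of which 1, 1 and 6 passed.

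The genes were next divided by the polyadenylation hexamer, which the selection did not use. Of the 14 with AATAAA after the coding part, 1 fell in DMSO, 1 with 1 µM and 6 with 10 µM (medians -0.57, 0.04 and -1.46). Of the 38 without it, 11, 6 and 29 fell (medians -0.98, -0.59 and -2.30). The difference between these classes was not tested, and Hist1h2bh and Hist1h2bm belong to neither. The 38 include genes in which the hexamer could not be seen, as the annotated 3′ part is too short or no coding transcript is annotated. These are the 15 genes counted above for the stem-loop, less Hist1h2bh and Hist1h2bm. Among them are Hist1h2ai, Hist1h2ak, Hist1h2an, Hist1h2bl and Hist1h3h, which fell in DMSO in this fit. Of the genes with AATAAA, 8 passed in no course. Hist1h1c, Hist1h2bc, Hist2h2be, Hist3h2a and Hist3h2ba had log2 changes between -0.13 and 0.44 in the 3 courses. Hist1h2ac had -1.56 in DMSO, 0.31 with 1 µM and -1.55 with 10 µM, Hist4h4 had -0.64, 0.94 and -1.63, and Hist1h2bq had -0.72, -0.39 and -0.49.

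The 14 genes with the hexamer summed to 98.0 ± 13.3 CPM (SD, n = 4) at 3 h and 106 ± 33.8 CPM at 24 h in DMSO, and to 101 ± 2.52 and 93.0 ± 13.4 CPM with 10 µM. Hist1h1c, Hist3h2ba and Hist1h2bc gave most of these sums, with means of 43.3, 13.8 and 11.3 CPM at 24 h with 10 µM. The sums thus show little of the 6 genes with the hexamer that fell with 10 µM. The 38 without it had 72.8, 71.3, 151 and 117 CPM at 3 h and 56.3, 47.3, 59.4 and 42.1 CPM at 24 h in DMSO. With 10 µM they had 120, 106, 143 and 124 CPM at 3 h and 34.7, 37.2, 36.4 and 29.3 CPM at 24 h. These groups do not overlap between the times. With 1 µM they had 100, 84.6, 106 and 106 CPM at 3 h and 68.4, 95.6, 50.4 and 34.9 CPM at 24 h, where replicate 2 at 24 h lies within the 3 h range.

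**Figure D3:**
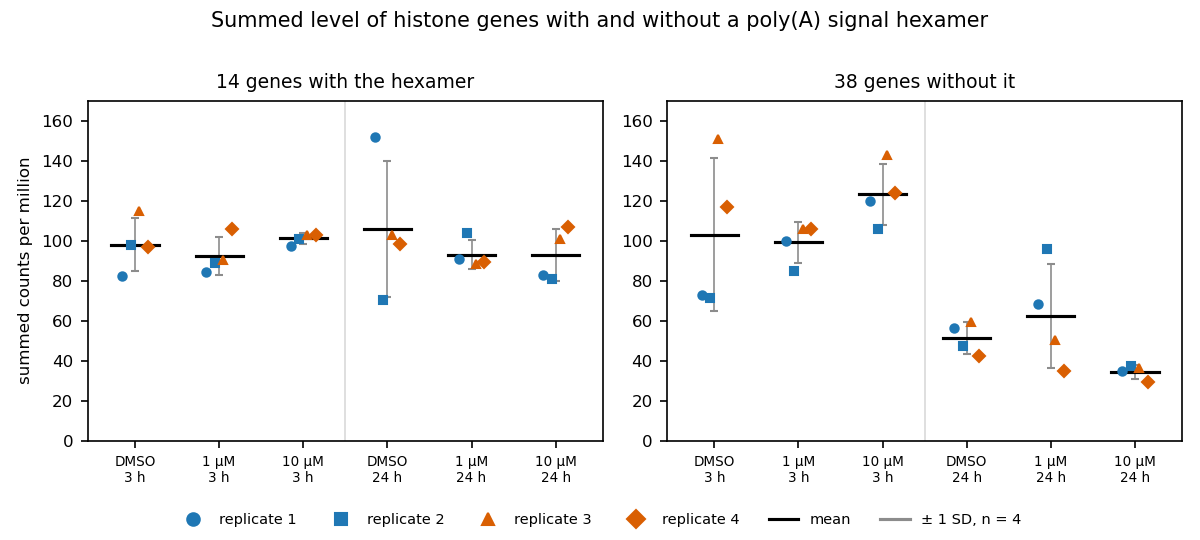
Summed CPM (vertical axes, from 0) of the 14 histone genes with AATAAA and of the 38 without it, in the 6 groups, with 1 point per library and the mean ± 1 SD (n = 4). The sums with AATAAA overlap between all groups, and the sums without it are lower at 24 h in DMSO (42.1 to 59.4 CPM) and with 10 µM (29.3 to 37.2 CPM) than in each 3 h library. Hist1h1c, Hist3h2ba and Hist1h2bc make up most of the mean sums with AATAAA, so falls of other genes in that class show little. The 38 include genes whose annotated 3′ part is too short to search.

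Promoters were compared because many of these genes moved together. RefSeq start sites on GRCm38.p6 were matched for 48 of the 54 genes, and the 250 bases upstream were searched on both strands. CCAAT was present in 39 of 48 (34.5% of 27025 promoters in the table): 5 of 5 H1, 11 of 11 H2A, 13 of 13 H2B, 7 of 8 H3 and 3 of 11 H4 genes. TATAAA was present in 25 (13.0% of all promoters) and the octamer ATTTGCAT in 11 (1.61% of all), 6 of 11 H2A and 5 of 13 H2B genes. AAACACA, a sequence known from H1 promoters, was present in 6 (6.22% of all), 4 of them among the 5 H1 genes. The 48 windows are not all separate. Those of Hist1h2ak and Hist1h2bn overlap on opposite strands, as do those of Hist1h2ae and Hist1h2bg, and of Hist1h2ag and Hist1h2bj. The same holds for Hist1h2ah with Hist1h2bk and Hist1h2ai with Hist1h2bl. A site in an overlap counts for both genes. The windows of Hist1h4m and Hist1h4n hold nearly the same bases. Shown are the 150 bases upstream of the start site for 2 genes that fell in DMSO and for Hist3h2ba, which passed in no time course. Capitals mark CCAAT and TATAAA on either strand.
Hist1h2an, chr13:21787249-21787398, minus strand: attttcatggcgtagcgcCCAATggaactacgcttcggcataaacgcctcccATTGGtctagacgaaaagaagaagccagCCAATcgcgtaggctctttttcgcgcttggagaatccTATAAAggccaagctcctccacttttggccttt
Hist1h3h, chr13:21717478-21717627, plus strand: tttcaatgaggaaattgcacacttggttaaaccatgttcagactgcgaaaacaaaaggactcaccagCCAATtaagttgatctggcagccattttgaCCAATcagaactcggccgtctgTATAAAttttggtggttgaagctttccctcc
Hist3h2ba, chr11:58948761-58948910, plus strand: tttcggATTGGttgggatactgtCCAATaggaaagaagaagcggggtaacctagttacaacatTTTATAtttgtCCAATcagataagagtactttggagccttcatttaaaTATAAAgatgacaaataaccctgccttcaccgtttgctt
A sense TATAAA begins at -33 in Hist1h2an and at -31 in Hist1h3h, counted from the start site, and Hist3h2ba has these letters on both strands. CCAAT lies upstream of the sense TATAAA in each. The TATAAA near the start site is not shared by the other genes that fell in DMSO. Hist1h2ai, Hist1h2bl and Hist1h3e had none in the 250 bases, and Hist1h2ae and Hist1h2bk had these letters only at -142 and -198. These letters describe the windows and say nothing of which factor binds there.

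After 24 h with 10 µM BPDP, 3 histone genes were lower than in DMSO and none was higher: Hist1h2ag, Hist1h2bb and Hist1h2bh. In edgeR's test 3.06% of all genes tested were called lower, so the share of histone genes is near this background and is not read as a property of the class. The median log2 fold change of the 54 was -0.49 with 44 negative, against -0.016 over all genes. An unadjusted p under 0.05 was reached by 10 of the 54 and by 19.9% of all genes. The groups of 5 did not overlap, all lower, where 7.10% of all genes had this pattern.

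Hist1h2ag, an H2A gene at chr13:22042460-22042944, had 1.35, 0.922, 3.33 and 0.66 CPM in the 24 h controls and 0.355, 0.225, 0.0638 and 0.258 CPM with 10 µM. Each treated library is below each control, and it fell by 2.73 on the log2 scale (SE 0.664, adjusted p = 0.0298). It shares 76.2% of its 100-base windows with another gene. Hist1h2bb had 3, 6, 16 and 8 counts in the controls and 0, 1, 0 and 0 with 10 µM, a scaled ratio of 0.0327 (95% interval for counting error 0.000804 to 0.195; adjusted p = 0.0357). Hist1h2bh had 3, 13, 10 and 26 counts in the controls and 3, 0, 0 and 0 with 10 µM, a ratio of 0.0623 (0.0124 to 0.192; adjusted p = 0.0483). All treated libraries of Hist1h2bb and Hist1h2bh are at or under the floor of 3 counts, so the fitted folds of -4.37 and -3.79 depend on the handling of low counts and are no bounds.

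Hist1h3d, an H3 gene, had 1.1, 0.922, 2.37 and 1.42 CPM in the controls and 0.557, 0.507, 0.255 and 0.581 CPM with 10 µM, without overlap, and missed the threshold (-1.58, adjusted p = 0.0854). Hist1h3f, another H3 gene, had 1.04, 1.18, 0.86 and 0.914 CPM against 0, 0.507, 0 and 0 CPM (-2.87, adjusted p = 0.106). Replicate 2 is the treated library with reads in Hist1h3f. Hist1h1a, an H1 gene, missed as well (-1.98, adjusted p = 0.0872).

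The calls depended on single libraries. In edgeR's test none passed without DMSO 24 h replicate 3, 10 µM 24 h replicate 3 or 10 µM 24 h replicate 4, and 1 passed without DMSO 24 h replicate 4, 10 µM 24 h replicate 1 or 10 µM 24 h replicate 2. With replicate number as a block Hist1h2bh missed (adjusted p = 0.0566), and Hist1h3f passed in its place (-3.51, adjusted p = 0.0322) beside Hist1h2ag and Hist1h2bb. DESeq2 called 6, adding Hist1h1a, Hist1h3d and Hist1h3f, with 5.07% of all genes lower, and 6 also passed with all 24 libraries in 1 fit, with 6.31% lower. In the authors' deposited table the histone genes with an adjusted p under 0.05 were Hist1h2ag and Hist1h3d.

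**Figure D4:**
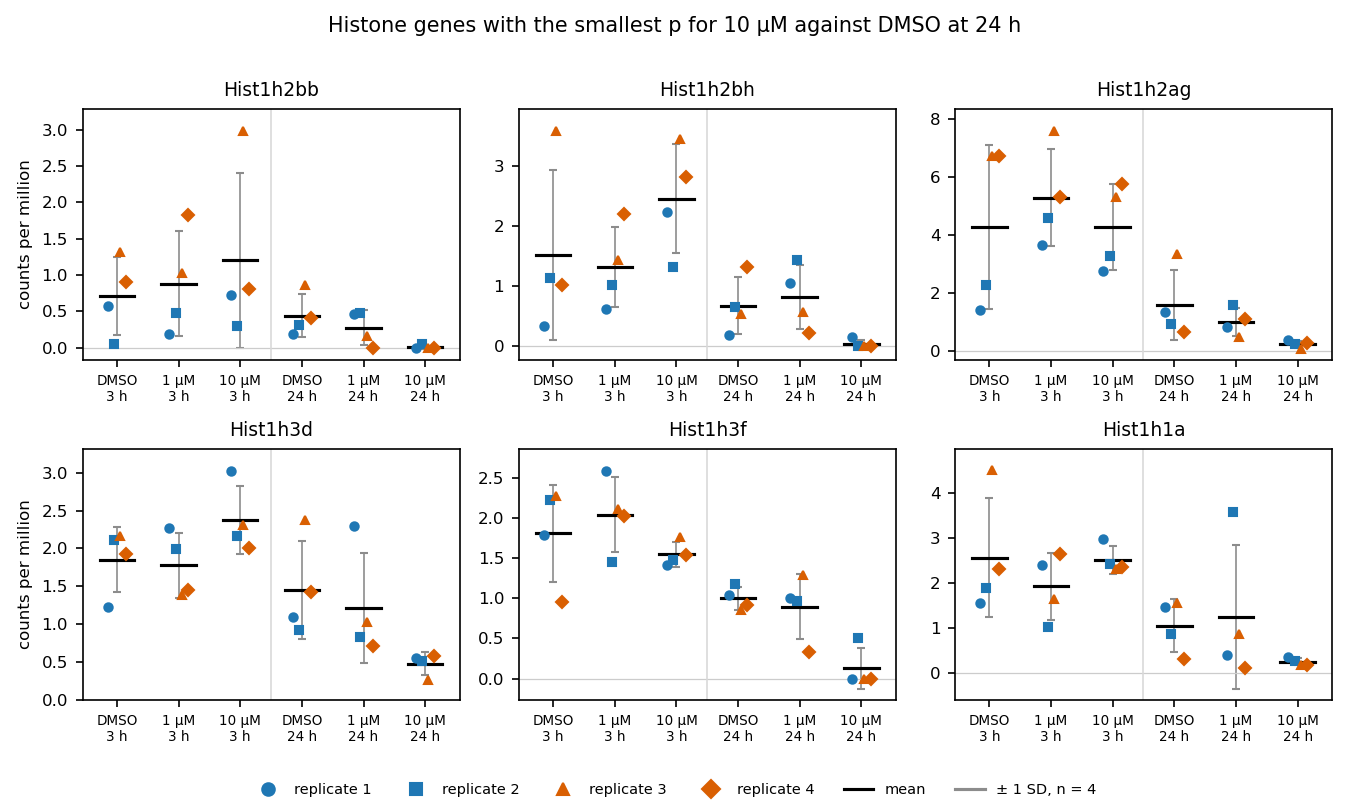
CPM (vertical axes, linear) of the 6 histone genes with the smallest p for 10 µM against DMSO at 24 h, in the 6 groups, with 1 point per library and the mean ± 1 SD (n = 4). With 10 µM at 24 h Hist1h2bb and Hist1h2bh are at 0 in 3 of 4 libraries, and in the 3 h libraries with 10 µM they lie within or above the control range.

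Other genes moved at this dose and time. Of 30 replication genes 26 fell against the 24 h controls (median -0.68), among them Mcm7 (-0.77) and Rrm1 (-0.70), and their sum was 906 to 1025 CPM against 1401 to 1704 CPM. Of 7 measured macrophage genes 6 fell (median -1.88), including C1qa (-2.57), a complement component, and Csf1r (-1.88), the receptor for macrophage growth factor, and their sum was 52.3 to 77.5 CPM against 149 to 229 CPM. Of 6 endothelial genes 4 fell, including Cdh5 (-0.76), and their sum was 169 to 193 CPM against 251 to 320 CPM. Of 6 epidermal genes 2 fell (median -0.76), including Krt5 (-1.25), and their sum was 813 to 1243 CPM against 1319 to 2154 CPM. Of 10 limb mesenchyme, 9 cartilage, 8 muscle and 7 measured erythroid genes none passed. The part of these shifts in the histone values was not tested.

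At 3 h no histone gene passed for either dose. With 10 µM edgeR and DESeq2 called none and 0.00595% of all genes tested passed in edgeR's test. At an unadjusted p under 0.05 there were 9 of the 54, 6 of them H4 genes, and 14.7% of all genes, so this count is near its background. The 54 had a median log2 fold change of 0.25 and the 12 H4 genes of 0.77. Hist1h4k, an H4 gene, had the smallest p (0.87, SE 0.243, adjusted p = 0.137). With 1 µM edgeR and DESeq2 called none (median -0.11), and 0% of all genes passed in edgeR's test. None of the 54 had an unadjusted p under 0.05, against 5.1% of all genes. In the authors' deposited tables no histone gene had an adjusted p under 0.05 for either dose at 3 h, but for 10 µM 7 of the 54 carry an adjusted p at all.

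With 1 µM at 24 h no histone gene passed in edgeR or DESeq2, and 0.0714% of all genes passed in edgeR's test. Hist1h2bl alone had an unadjusted p under 0.05 (1.20, adjusted p = 0.816), 1 of 54, as did 5.82% of all genes. The median of 0.29 rested on replicates 1 and 2 (0.76 within them, -0.26 within replicates 3 and 4) and was -0.14 without 1 µM 24 h replicate 2. At 3 h the median for 1 µM also turned, from 0.20 within replicates 1 and 2 to -0.40 within 3 and 4, and to 0.12 without DMSO 3 h replicate 3. At both times the sign of the median for 1 µM therefore depended on which libraries entered.

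Between the doses, 10 µM against 1 µM at 24 h had a median log2 difference of -0.79 over the 54 genes, with 46 negative. Hist1h2bh and Hist1h3f passed, both lower with 10 µM, where 2.11% of all genes tested were lower. Hist1h2bh had 1.06, 1.44, 0.568 and 0.219 CPM with 1 µM against 0.152, 0, 0 and 0 CPM with 10 µM (-4.03, SE 0.951, adjusted p = 0.0151), a ratio of 3 to 54 counts. Hist1h3f had 1, 0.963, 1.29 and 0.328 CPM against 0, 0.507, 0 and 0 CPM and overlapped through 1 µM replicate 4 and 10 µM replicate 2 (-2.72, SE 0.684, adjusted p = 0.0236). In the same comparison 16 of 30 replication genes and 6 of 7 macrophage genes were lower with 10 µM, with sums of 906 to 1025 CPM against 1279 to 1468 CPM and of 52.3 to 77.5 CPM against 145 to 222 CPM. Their part in the histone values was not tested. At 3 h the median was 0.43 with 44 positive. None passed there in edgeR's test, where 0% of all genes did, and 5 had an unadjusted p under 0.05, as did 8.26% of all genes. All 12 H4 genes had a positive difference at 3 h, between 0.01 and 1.30.

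Several histone genes differed by replicate number, whose meaning the labels do not give. In a joint test of the numbers across all 24 libraries 9 of 54 passed, where 5.44% of all genes tested passed. They were Hist1h2bc, Hist1h3c, Hist1h2al, Hist1h4i, Hist1h2bj, Hist1h2ac and Hist2h2bb, and also Hist1h4m and Hist1h2bq, whose calls the count minimum favoured. Between replicates 3 and 4 and replicates 1 and 2, 7 genes were higher, where 3.93% of all genes were, and 7 lower, where 5.38% were. This split was known from earlier results of these data. Its adjusted p-values, here and below, describe it and are no independent test of it. The median of the 54 was 0.13. Hist1h4m had 10 counts or more in replicates 3 and 4 alone and Hist1h2bq in replicates 1 and 2 alone. The count minimum itself thus favoured their difference, and no p-value is given for them. Without these genes 7 passed the joint test, and 6 were higher and 6 lower.

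Hist1h2bc, an H2B gene at chr13:23684199-23692488, had 5.5, 6.11, 19 and 15.5 CPM in the 3 h controls and 5.75, 5.89, 20 and 13.9 CPM in the 24 h controls. With 10 µM at 24 h it had 5.02, 3.55, 20.2 and 16.5 CPM. Replicates 3 and 4 are the high libraries in 6 of 6 groups with no overlap (log2 difference 1.49, SE 0.0981, adjusted p = 4.37e-11). It passed in no comparison of dose or time. Hist1h2al, an H2A gene at chr13:51202688-51203065, ran the other way, with 3.14 to 12.4 CPM in replicates 1 and 2 and 0.927 to 5.43 CPM in 3 and 4. Its log2 difference was -1.36 (SE 0.209, adjusted p = 0.000113), and replicates 3 and 4 are lower in 6 of 6 groups.

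Some of these differences lie in near copies. Hist1h4m, an H4 gene at chr13:21811746-21812147, had 0 to 0.102 CPM in replicates 1 and 2 and 0.0638 to 1.14 CPM in 3 and 4. Its near copy Hist1h4n, at chr13:21831767-21832196, had 0.41 to 2.32 CPM in replicates 1 and 2 and 0.0638 to 0.882 CPM in 3 and 4 (-1.24, SE 0.336, adjusted p = 0.0174). They share 88.1% and 80.7% of their windows with another gene and had their higher values in opposite replicates. Their sum lay between 0.512 and 2.35 CPM in replicates 1 and 2 and between 0.128 and 1.74 CPM in 3 and 4, which overlap. Hist1h2bq, an H2B gene at chr13:21806412-21810199 that shares 94.8% of its windows, had 0 to 1.03 CPM in replicates 1 and 2 and 0 to 0.252 CPM in 3 and 4. How the authors' counting treated reads that match several such copies is not known here, and it was not tested.

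Hist1h4c, an H4 gene (1.99, SE 0.578, adjusted p = 0.0353), and Hist1h2bj (1.87, SE 0.334, adjusted p = 0.000406) were also higher in replicates 3 and 4, though not in each group. Hist1h4c had 0.116, 0.108, 4.86 and 2.93 CPM in the 3 h controls, but 0.412, 3.92, 1.14 and 1.09 CPM with 1 µM at 24 h, where replicate 2 is the highest. Hist1h2bj had 0.289, 1.03, 3.48 and 3.78 CPM in the 3 h controls but 0, 0.0563, 0 and 0.258 CPM with 10 µM at 24 h, where the numbers do not separate. Over both times 14 genes passed, and 12 without Hist1h4m and Hist1h2bq. In the 3 h libraries alone 14 passed. Of the 14 at 3 h, 12 were higher, where 2.53% of all genes were, and 2 lower, where 3.56% were. In the 24 h libraries alone 1 was higher, where 0.631% of all genes were, and 2 lower, where 1.31% were. The counts at single times are not given without Hist1h4m and Hist1h2bq. Of the marker lists, 7 of 9 cartilage genes were lower in replicates 3 and 4, 5 of 10 limb mesenchyme genes were higher, and 3 erythroid genes were higher and 1 lower. Whether these shifts bear on the histone genes was not tested.

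**Figure D5:**
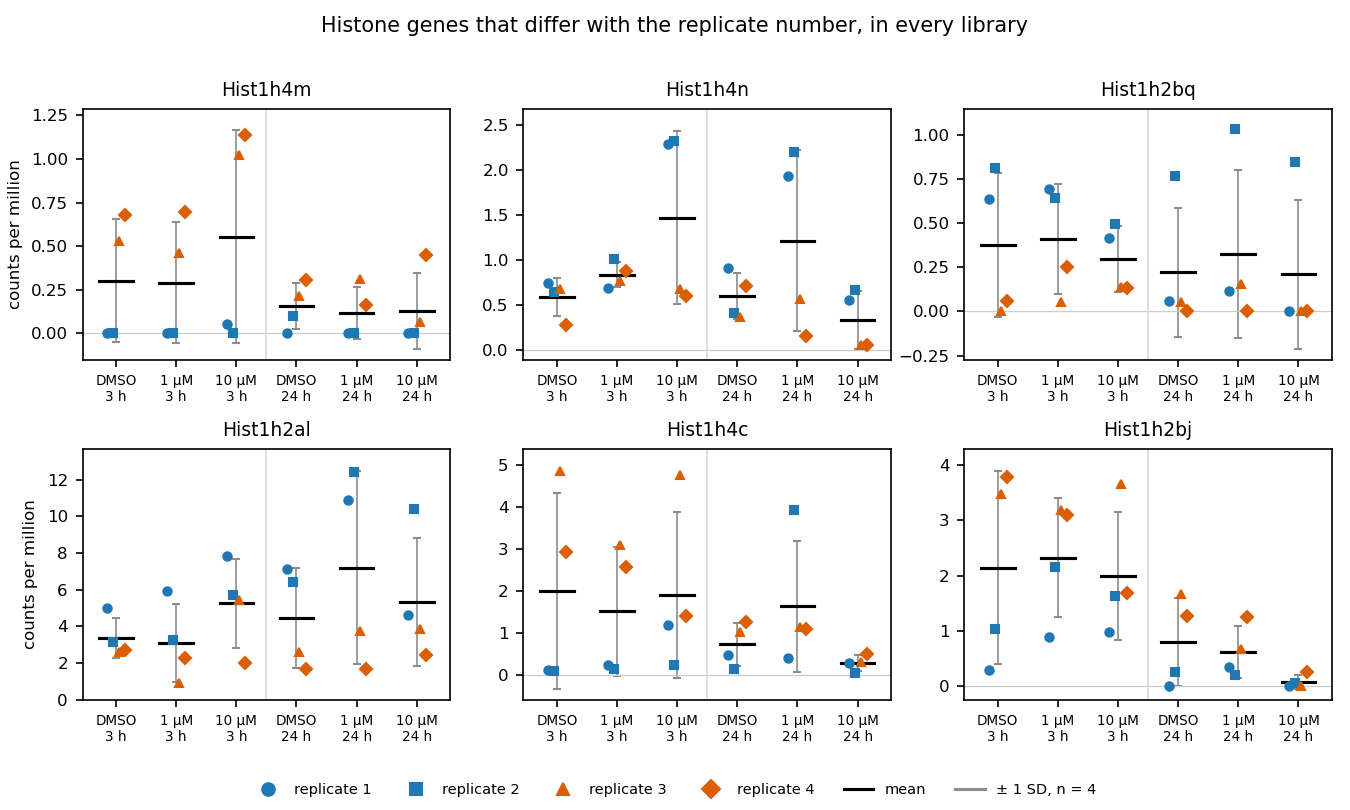
CPM (vertical axes, linear) of 6 histone genes by replicate number, 3 and 4 in orange and 1 and 2 in blue, in the 6 groups, with the mean ± 1 SD (n = 4). Hist1h4m is at 0 to 0.102 CPM in replicates 1 and 2 while its near copy Hist1h4n is at 0.41 to 2.32 CPM there.

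Genes with other roles in histone supply were listed as well. Replacement histones are made throughout the cell cycle from polyadenylated mRNA. Of 12 such genes 5 fell between 3 and 24 h in DMSO and 4 fell with 10 µM against DMSO at 24 h (medians -0.42 and -0.32). H2afz, which codes for the variant H2A.Z, passed in both (-0.73, adjusted p = 0.00257, and -0.42, adjusted p = 0.0346), while H3f3b and H3f3a, which code for H3.3, and H1f0, a linker histone of resting cells, passed in neither. Of 18 histone chaperone genes 8 fell over time, and at 24 h with 10 µM 6 were lower and 1 higher. Ssrp1, a subunit of the FACT complex, fell over time (-0.34, adjusted p = 0.0464). Of 19 measured genes of histone mRNA 3′ end formation and decay 3 fell over time, including Zc3h18 (-0.27, adjusted p = 0.0494), and 2 fell with 10 µM at 24 h, including Srrt (-0.41, adjusted p = 0.0401). Upf1, which acts in histone mRNA decay, passed in neither. The medians of the 54 histone genes for these comparisons were -0.88 and -0.49, and the difference between histone genes and these lists was not tested.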

How the data were processed

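RNA was measured in 24 libraries, 6 groups of 4. The authors deposited raw read counts per gene and library in 5 pairwise tables, with the authors' log2 fold change, p-value and adjusted p-value. Per the submitters' processing notes, CASAVA 1.8, STAR 2.5, HTSeq 0.6.1, DESeq2 (version given as 2) and mm10 were used; annotation release and strandedness are not given in the sources used here. A further 50 value columns were not used. Tables were joined by gene identifier; counts of a library present in several tables did not conflict (0 differences), and 34232 gene and library entries listed in no table were set to 0. Replicates were compared for duplicated libraries and none was found (chi-square over its degrees of freedom at least 4.64).

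The members and lists were chosen with earlier results of these data known. Genes with at least 10 counts in 4 or more libraries (16811) were tested with edgeR 4.0.16 quasi-likelihood (robust, TMM, R 4.3.3) and called at a Benjamini-Hochberg adjusted p under 0.05 over all of them. Comparisons with DMSO and DMSO over time used their 8 libraries, other contrasts all 24. DESeq2 1.42.0 was an alternative, and the scripts were tested on simulated data. Named were the highest-count gene of each class, up to 3 called genes with the largest change each way per comparison, and up to 4 genes of highest count per list; Hist1h2bc, Hist1h3d, Hist1h3f, Hist1h1a, Hist1h4k and Hist1h2bl were named after their values were seen. A planned sum over small RNA gene types was not made, as 0 such genes were found.

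Replicate numbers pair libraries where all 4 correlations of same-numbered deviations exceed 0.1. This held at 24 h (0.121 to 0.277 for 1 µM and 0.134 to 0.30 for 10 µM), so the blocked value is given there. A level near the floor of 3 counts has little precision, and intervals (95%, exact) cover counting error only.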

Additional observations from a re-analysis of the deposited data

Results flagged for a closer look

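In 12 of 114 groups of 4 libraries, 1 library stood apart from the other 3 by Dixon's criterion. Chance flags about 1 in 20 groups of normally distributed values, a rate that does not hold for counts near 0. A group with 3 libraries at 0 and 1 above it is always flagged. This was so for Hist1h2bb, Hist1h2bh, Hist1h3f and Hist1h2bq with 10 µM at 24 h, so the 12 cannot be read as an excess. Hist1h2bq stood out in replicate 2 at 24 h in each treatment, with 0.769 CPM in DMSO, 1.03 CPM with 1 µM and 0.844 CPM with 10 µM, against at most 0.155 CPM in the other libraries of these groups. With 10 µM at 24 h, the single high libraries were Hist3h2ba in replicate 2 (18.9 CPM against 12.3 or lower), Hist1h3h in replicate 1 (1.06 CPM against 0.169 to 0.258), Hist1h3f in replicate 2 (0.507 against 0) and Hist1h4m in replicate 4 (0.452 against at most 0.0638). In the same group Hist1h2bb in replicate 2 (0.0563 CPM) and Hist1h2bh in replicate 1 (0.152 CPM) were the libraries above 0, with 1 and 3 counts. With 10 µM at 3 h, Hist3h2a was high in replicate 3 (5.97 against 4.93 to 5.09) and Hist1h2bk in replicate 4 (6.3 against 3.65 to 4.09). In the 24 h controls Hist1h4i was low in replicate 2 (3.59 against 7.53 to 8.33). The effect of 10 µM on Hist1h2bh differed between 24 and 3 h in the test of the difference itself (log2 -4.47, adjusted p = 0.0289, edgeR quasi-likelihood). It was 1 of 54 to pass, where 1.59% of all genes tested passed in that direction. Its 3 counts with 10 µM at 24 h leave the size of this value dependent on the handling of low counts.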

How the results depend on the processing

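For 10 µM against DMSO at 24 h, 3 calls became 6 with DESeq2 or all 24 libraries in 1 fit, 1 with edgeR's own count filter (35 histone genes tested), 0 within replicates 1 and 2, and 0 to 3 with 1 library left out. For DMSO over time, 7 became 13 with DESeq2 or all 24 libraries, 0 within replicates 1 and 2, and 3 to 8 with 1 library left out. For replicate number, 9 became 3 at 24 h alone, and for replicates 3 and 4 against 1 and 2, 14 became 3. The 9 and the 14 include Hist1h4m and Hist1h2bq, which the count minimum favoured. Calls over time include Hist1h2an, Hist1h2bb, Hist1h2bf and Hist1h4f, whose fall it favoured. Without the 2 libraries high in Yam1 the counts over both times were 7 and 11. The cause was not tested. With 1 µM over time, 7 in the fit of all 24 libraries became 9 in the fit of its own 8 libraries. With 1 of these 8 left out there were 7 to 11. With 10 µM over time, 37 became 38 in its own 8 libraries, and 33 to 37 with 1 left out. These 8-library and leave-one-out fits were chosen after seeing the data. With the replicate block, 1 µM over time gave 11 (Hist1h2al higher, the others lower), the 10 µM interaction 3 (Hist1h2bh, Hist1h2bj and Hist1h2ag), 10 µM against 1 µM at 24 h 3, 10 µM at 24 h 3, DMSO over time 9 and 10 µM over time 38; it changed no other count by over 1.5 times. At 3 h and for DMSO over time same-numbered libraries correlated above 0.1 in 3 of 4 pairs, so the block there is no pairing. Other scaling, no count filter and removal of a length trend left each count within 1.5 times. For fits with libraries left out, with a block or with another count filter, shares over all genes are not given. Those counts show how the calls moved and are not read as a property of the class. Of single genes' values under alternatives, 169 stayed on their side of the threshold, 44 no longer passed and none reversed. At 14 of the 54 genes the mean is under 1 CPM, where a few counts make up a value.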
